A study of Capra hircus with 9 samples.

Results

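The genes described here encode the nuclear subunits of oxidative phosphorylation, the mitochondrial respiratory chain and the ATP synthase. They were chosen by symbol alone, without regard to their values: NADH dehydrogenase subunits (symbols beginning NDUFA, NDUFB, NDUFC, NDUFS or NDUFV), SDHA to SDHD, nuclear subunits of complexes III and IV, and symbols beginning ATP5. The rule found 59 of the 23499 genes in the deposited table. Of these, 36 belong to complex I (7 core and 29 accessory subunits), 4 to complex II, 2 to complex IV (NDUFA4 and its paralog NDUFA4L2) and 17 carry an ATP synthase (complex V) symbol. The part of the rule written for UQCR genes, CYC1 and the COX4 to COX8 genes matched 0 rows, so complex III and the COX-named subunits of complex IV were not analysed here. The 59 genes lay on 23 chromosomes.

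RNA was sequenced from whole mammary gland of 9 adult Laoshan dairy goats in the third parity, all healthy, kept on the same farm under the same feeding and collected at slaughter, with no treatment. There were 3 goats in each of 3 stages: late lactation (LL, 240 days postpartum), the dry period (DP, 300 days postpartum) and late gestation (LG, 140 days after mating). Each goat gave 1 library, so the spread within a stage is the spread between goats. Levels were read as FPKM, fragments per kilobase of transcript scaled to the number of mapped fragments, which makes levels comparable between genes of different length.

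In the respiratory chain, complex I takes electrons from NADH and complex II takes them from succinate, and both pass them to ubiquinone. Complexes III and IV carry the electrons on to oxygen, while complexes I, III and IV pump protons across the inner mitochondrial membrane. Complex V, the ATP synthase, lets protons flow back through a ring of c subunits and uses the rotation to make ATP in its F1 part. The secretory epithelium of a lactating mammary gland is rich in mitochondria, since synthesis of milk protein, lactose and fat uses large amounts of ATP. Most subunits are encoded in the nucleus, and a small set, ND1 among them, is encoded by mitochondrial DNA.

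The libraries differed in how much of the total a few genes took. The 10 highest genes of a library held 80.6% to 86.0% of the summed FPKM in LL, 53.6% to 58.1% in the dry period and 55.0% to 58.5% in LG. Every other gene is pushed down in a unit that is relative to the total, so each library was divided by a median-ratio scaling factor, which was 0.498 to 0.605 in LL, 1.44 to 1.53 in the dry period and 1.20 to 1.31 in LG. "Scaled" marks such values below, and fold changes are differences of log2(scaled FPKM + 1). Without it, the median over the genes tested was higher by 1.09 in DP than in LL and by 0.93 in LG than in LL on the log2 scale, and was at -0.18 in LG against DP. All 59 genes passed the filter on low values (at least 0.5 FPKM in at least 3 libraries) and none was at 0 in any library. A gene was called when its limma adjusted p (Benjamini-Hochberg over the 14701 genes tested) was under 0.05 and its log2 fold change was at least 1 in size.

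Relative to the other genes of the same library, oxidative phosphorylation genes were lowest in the dry period. In DP against LL, 58 of the 59 genes had a lower scaled level, 22 were called lower (8.79% of all genes tested were) and limma called 0 higher, with 0 higher at an unadjusted p under 0.05 as well. With the adjusted p alone, 55 were lower, against 28.6% of all genes tested. The median log2 fold change was -0.89, with a range from -2.04 for NDUFA4 to 0.72 for NDUFA4L2. The 3 DP libraries all lay below the 3 LL libraries for 57 genes, against 33.4% of all genes tested. NDUFA4L2, with an adjusted p of 0.0925, was the exception in direction.

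In LG against DP, 58 genes had a higher scaled level, 14 were called higher (6.37% of all genes tested) and limma called 0 lower, again with 0 lower at an unadjusted p under 0.05. With the adjusted p alone, 50 were higher, against 18.4% of all genes tested, and the median log2 fold change was 0.80. The LG libraries all lay above the DP libraries for 55 genes, against 25.1% of all genes tested. Without LG replicate 1, 9 genes were called: ATP5G3, ATP5O, NDUFC2, NDUFS1 and SDHB lost their call. Called in both comparisons were ATP5D, ATP5L, NDUFA4, NDUFA7, NDUFC2 and SDHD. The DP libraries enter both comparisons, so a common error in them would move both.

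The median fold change was smallest between late gestation and late lactation. In LG against LL, 24 genes had a higher and 35 a lower scaled level, where the median log2 fold change was -0.09, and limma called 0 genes in either direction, where 10.7% of all genes tested were called higher and 6.61% lower. At an unadjusted p under 0.05 there were 22 genes, 8 higher and 14 lower. With the adjusted p alone there were 5 higher (25.6% of all genes tested) and 10 lower (24.6%). The range ran from -0.97 for SDHA to 0.63 for SDHD and ATP5G2. SDHA was the 1 gene called, as lower, when LL replicate 3 or LG replicate 1 was left out.

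**Figure D1:**
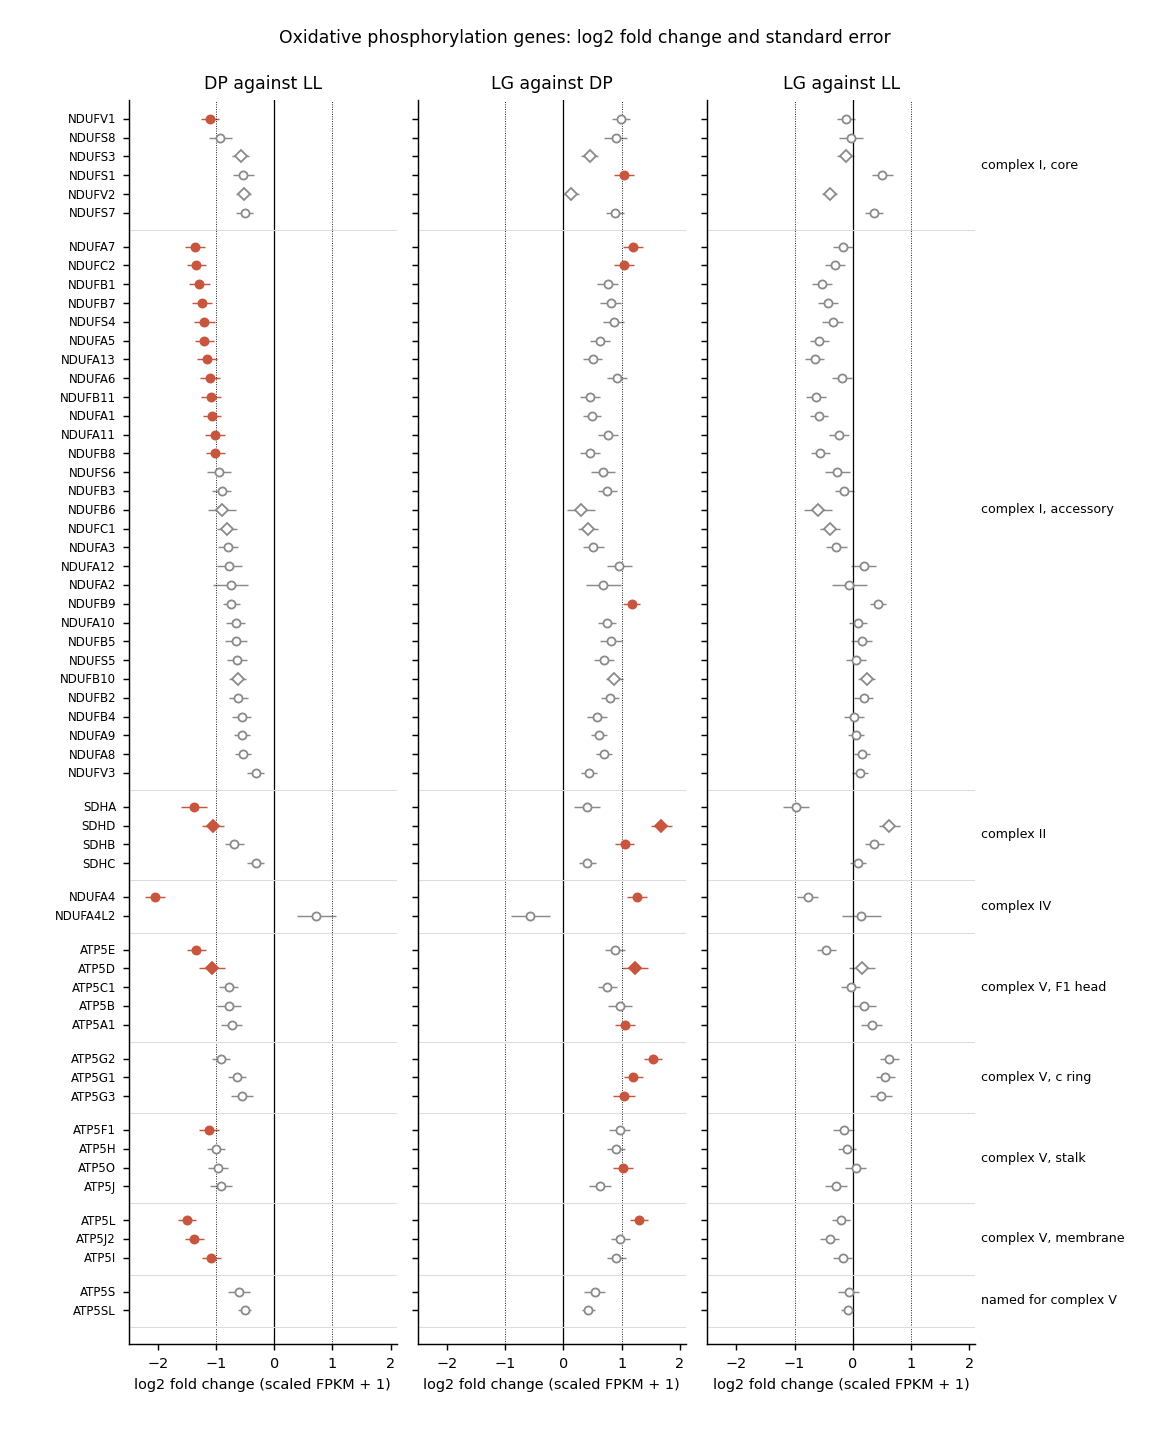
The log2 fold change (x axis, scaled FPKM + 1) of 58 of the 59 genes, grouped by complex, with its limma standard error, in DP against LL, LG against DP and LG against LL. Filled red marks are genes called at an adjusted p under 0.05 and a fold change of at least 1 (dotted lines), and diamonds are genes whose value follows a neighbouring row. All but NDUFA4L2 lie left of 0 in DP against LL and right of 0 in LG against DP, and no mark is filled in LG against LL.

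The direction of the deposited values themselves was different. As deposited, FPKM was lowest in LL for 56 of the 59 genes and highest in LG for 57, and the summed FPKM of the 59 genes was 1304 to 1577 in LL, 1811 to 1965 in the dry period and 2873 to 3303 in LG. In deposited FPKM, all DP libraries were above all LL libraries for 40 genes, where 84.0% of all genes tested were, and below them for 1 gene, NDUFA4. All LG libraries were above all LL libraries for 55 genes (76.1% of all genes tested) and above all DP libraries for 44 (15.5%). The rise from LL to DP in deposited FPKM was thus smaller than that of most genes: the median log2 fold change of the 59 genes was 0.48 against 1.09 for all genes tested.

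The place of the 59 genes relative to all others was alike under the 4 scalings tried in both comparisons with DP. Apart from quantile normalization, these scalings move all genes of a library by nearly the same amount on the log scale. They could therefore hardly change that place, and only quantile normalization could have given a clearly different one. In DP against LL, 58 of the 59 genes were below the median of all genes tested with median-ratio scaling, with no scaling and with scaling by the sum outside the 10 highest genes, and 55 were with quantile normalization. In LG against DP, 57 or 58 genes were above it under these 4 choices. In LG against LL, 23 to 37 genes were above it, and the median of the 59 genes changed sign between the choices. The number of calls did depend on the scaling. In DP against LL, 2 genes were called higher and 0 lower without scaling, where 54.3% of all genes tested were called higher. With quantile normalization 4 were called lower and 0 higher, beside 7.33% of all genes called lower. With the sum outside the 10 highest genes 1 was called in each direction, beside 28.4% of all genes called higher and 4.21% lower.

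Ranks within a library, which use no scaling between libraries, placed DP lowest as well. The median of the 59 genes stood at the percentile 90.4 to 92.0 of the genes tested in the LL libraries, at 84.9 to 86.6 in DP and at 90.9 to 92.7 in LG. The percentile of 46 genes was lower in every DP library than in every LL library (31.4% of all genes tested), and that of 50 genes was higher in every LG library than in every DP library (25.7% of all genes tested). No gene moved the other way without overlap in these 2 comparisons. In LG against LL, 20 genes were higher and 10 lower in rank without overlap, beside 28.4% and 29.8% of all genes tested. Scaled values gave 8 higher and 14 lower there, so the order of LL and LG depended on the measure.

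**Figure D2:**
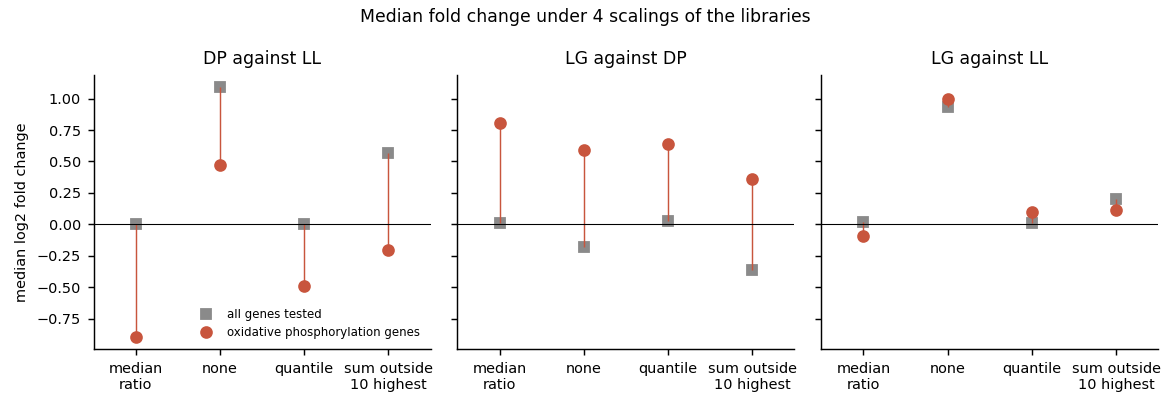
Median log2 fold change (y axis) of the 59 oxidative phosphorylation genes (red circles) and of all 14701 genes tested (grey squares) under 4 scalings of the libraries. Apart from quantile normalization, the scalings move circles and squares nearly together. The red circles lie under the grey squares at every scaling in DP against LL, over them at every scaling in LG against DP, and near them in LG against LL, where the medians differed by -0.11 to 0.09.

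All 36 complex I genes had a lower scaled level in DP than in LL, 13 of them called, and all 36 had a higher level in LG than in DP, 4 of them called. The medians were -0.81 and 0.73. The 7 core genes, among them those for the subunits that carry the flavin and the iron-sulfur clusters, had medians of -0.57 and 0.88, with 1 call in each comparison. The 29 accessory genes had medians of -0.89 and 0.70, with 12 and 3 calls. Whether core and accessory genes differed was not tested.

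NDUFV1 encodes the flavoprotein that binds NADH (chromosome 29, 46509096 to 46514891, plus strand in the table, which names no genome build). Its scaled FPKM was 32.3, 35.5 and 27.8 in LL, 12.8, 13.5 and 16.9 in the dry period, and 31.2, 27.7 and 28.7 in LG. The DP libraries lay apart from both other stages, and LL and LG overlapped. NDUFV1 fell in DP against LL by 1.10 on the log2 scale (SE 0.15, adjusted p 0.000299), and its log2 fold change in LG against DP was 0.98 (SE 0.15, adjusted p 0.00122), just under the fold needed for a call.

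NDUFS1, the largest core subunit, which holds iron-sulfur clusters of the electron path, was at 13.2, 12.2 and 8.8 scaled FPKM in LL, 8.2, 6.8 and 7.5 in the dry period, and 18.5, 13.5 and 17.8 in LG. Every LG library was above every library of the other stages. It rose in LG against DP (log2 fold change 1.04, SE 0.18, adjusted p 0.0019), and was at -0.53 in DP against LL (adjusted p 0.0272) and at 0.51 in LG against LL (adjusted p 0.0363).

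NDUFS7 and NDUFS8 encode iron-sulfur subunits near the ubiquinone site. NDUFS7 had a mean scaled FPKM of 19.4 ± 3.3 in LL, 13.2 ± 1.3 in the dry period and 25.1 ± 1.1 in LG (SD, n = 3), and NDUFS8 28.6 ± 5.7, 14.5 ± 2.5 and 27.8 ± 4.2. Neither was called: NDUFS7 had a log2 fold change of -0.51 between DP and LL and of 0.88 between LG and DP, and NDUFS8 of -0.93 and 0.90. NDUFS3 and NDUFV2 are core genes whose values follow another gene, and they are described with the linked rows.

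Among accessory subunits, which surround the core and stabilise it, NDUFA7 and NDUFC2 had the largest called changes in DP against LL. NDUFA7 (chromosome 7, 93459951 to 93467318, plus strand) was at 28.4, 30.6 and 21.1 scaled FPKM in LL, 9.6, 9.0 and 10.6 in the dry period, and 25.5, 24.7 and 20.5 in LG. It fell in DP against LL by 1.36 on the log2 scale (SE 0.17, adjusted p 0.000136) and rose in LG against DP by 1.19 (SE 0.17, adjusted p 0.000679). As deposited, its 3 DP values, 14.6, 12.9 and 15.2 FPKM, lay among the LL values of 14.1, 17.0 and 12.8. The scaled and deposited values of NDUFA7 thus separated LG from DP alike, but only the scaled values separated DP from LL.

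NDUFC2, a subunit of the membrane arm and the most abundant complex I gene in LL and LG, was at 74.6, 77.6 and 58.3 scaled FPKM in LL, 25.7, 28.1 and 27.1 in the dry period, and 64.2, 59.0 and 47.3 in LG. Its DP libraries lay close together and below all others. It fell in DP against LL by 1.34 (SE 0.17, adjusted p 0.000166) and rose in LG against DP by 1.04 (SE 0.17, adjusted p 0.00161), both on the log2 scale.

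NDUFB9, another membrane arm subunit, was at 24.1, 25.6 and 28.0 scaled FPKM in LL, 13.6, 14.2 and 17.8 in the dry period, and 36.9, 32.4 and 36.7 in LG. The 3 stages did not overlap, with LG highest. It rose in LG against DP (log2 fold change 1.17, SE 0.15, adjusted p 0.000374) and was at 0.43 in LG against LL (adjusted p 0.0315) without a call. Of the other accessory genes called lower in DP against LL, the log2 fold changes ran from -1.29 for NDUFB1 to -1.01 for NDUFB8. NDUFV3, at -0.32 in DP against LL (adjusted p 0.0728), and NDUFA2, at -0.75 (adjusted p 0.0566), were the complex I genes past no threshold there.

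The 4 genes of complex II, which oxidises succinate and also serves the citric acid cycle, did not share a pattern in late gestation. SDHA, the flavoprotein that binds succinate (chromosome 20, 71719443 to 71741437, minus strand), was at 60.2, 48.5 and 38.6 scaled FPKM in LL, 18.7, 20.6 and 15.3 in the dry period, and 32.0, 19.8 and 22.2 in LG. LG overlapped DP and lay below LL. SDHA fell in DP against LL by 1.37 on the log2 scale (SE 0.22, adjusted p 0.000752). Its log2 fold change was -0.97 in LG against LL (SE 0.22, adjusted p 0.00569) and 0.40 in LG against DP (adjusted p 0.188).

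SDHB, the iron-sulfur subunit that passes the electrons on, was at 30.7, 35.2 and 24.8 scaled FPKM in LL, 17.9, 19.0 and 17.9 in the dry period, and 44.6, 38.7 and 34.2 in LG. It rose in LG against DP (log2 fold change 1.05, SE 0.16, adjusted p 0.00121), and its log2 fold change in DP against LL was -0.69 (adjusted p 0.00622). In FPKM, SDHB was above its partner SDHA in every LG library and below it in every LL library. SDHC, a membrane anchor, had the smallest difference of the 4 between DP and LL. It was at 18.9 ± 1.7 scaled FPKM in LL, 14.9 ± 1.9 in the dry period and 20.2 ± 2.1 in LG (SD, n = 3), with log2 fold changes of -0.32 (adjusted p 0.0833) and 0.41 (adjusted p 0.0519).

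SDHD, the other anchor, was listed at 61.6, 78.2 and 55.1 scaled FPKM in LL, 31.6, 29.5 and 30.3 in the dry period, and 120, 84.2 and 98.6 in LG, a log2 fold change of 1.68 in LG against DP (SE 0.18, adjusted p 0.000205), the largest of the 59 genes. It is also a linked row: its FPKM exceeded that of C15H11orf57, listed 2 rows away on the same strand, by 2.76 to 3.26 in every library. The value thus cannot be told apart from that of its neighbour.

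NDUFA4 was named as a complex I subunit and was later placed in complex IV. It lies at chromosome 4, 101517645 to 101525261, plus strand, and was at 98.7, 108 and 78.2 scaled FPKM in LL, 20.3, 21.1 and 25.0 in the dry period, and 61.0, 47.5 and 55.8 in LG. The 3 stages did not overlap. NDUFA4 fell in DP against LL by 2.04 on the log2 scale (SE 0.17, adjusted p 1.65e-05) and rose in LG against DP by 1.27 (SE 0.17, adjusted p 0.000612). In LG against LL its log2 fold change was -0.78 (adjusted p 0.00499). As deposited too it was lower in every DP library, at 31.0, 30.4 and 36.0 FPKM, than in every LL library, at 49.1, 59.5 and 47.4.

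NDUFA4L2, a paralog known as a gene induced by low oxygen, had the lowest mean FPKM of the 59 genes in each stage, and its 3 DP libraries differed widely. It was listed at 0.47, 0.47 and 0.54 FPKM in LL, 1.17, 3.25 and 6.16 in the dry period, and 0.86, 2.12 and 1.28 in LG. As deposited, every DP library was above every LL library. Scaled, DP replicate 1 at 0.8 lay with the LL libraries, and the difference between DP and LL (log2 fold change 0.72, SE 0.34, adjusted p 0.0925) was not called. It was called higher when DP replicate 1 was left out.

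All 17 genes with an ATP synthase symbol had a lower scaled level in DP than in LL (median -0.92, 6 called). They had a higher level in LG than in DP (median 0.97, 7 called), with an adjusted p under 0.05 for all 17 in both comparisons. By part of the enzyme, the median log2 fold changes in DP against LL and in LG against DP were -0.79 and 0.97 for the 5 F1 genes, -0.64 and 1.20 for the 3 c ring genes, -0.98 and 0.93 for the 4 peripheral stalk genes, and -1.38 and 0.98 for the 3 small membrane subunits e, f and g. ATP5S and ATP5SL, which are named for the enzyme and are not among its structural subunits, had medians of -0.56 and 0.48, with no call.

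In the F1 part, ATP5A1 (alpha subunit) and ATP5B (beta subunit, which holds the catalytic sites) were among the most abundant of all 59 genes. ATP5A1 was at 145, 179 and 122 scaled FPKM in LL, 83.1, 85.5 and 96.2 in the dry period, and 195, 166 and 193 in LG. It rose in LG against DP (log2 fold change 1.06, SE 0.18, adjusted p 0.00174) and was at -0.73 in DP against LL (adjusted p 0.00632). ATP5B, at 146 ± 23 scaled FPKM in LL, 84.8 ± 16.4 in the dry period and 167 ± 26 in LG (SD, n = 3), had log2 fold changes of -0.78 and 0.97 and no call. ATP5C1, the gamma subunit of the rotating shaft, was at -0.79 and 0.75. ATP5E, the epsilon subunit, fell in DP against LL by 1.34 (adjusted p 0.000144).

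The c subunit is encoded by ATP5G1, ATP5G2 and ATP5G3, whose mature proteins are the same. All 3 genes were called higher in LG than in DP and none was called in DP against LL. ATP5G2 (chromosome 5, 26112613 to 26120763, plus strand) was at 147, 171 and 152 scaled FPKM in LL, 96.0, 77.8 and 75.6 in the dry period, and 247, 257 and 225 in LG. Its stages did not overlap, and in LG it was the most abundant of the 59 genes. ATP5G2 rose in LG against DP by 1.54 on the log2 scale (SE 0.16, adjusted p 0.000154), and was at -0.91 in DP against LL (adjusted p 0.00104) and 0.63 in LG against LL (adjusted p 0.00829).

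ATP5G1 was the scarce c subunit gene, at 10.4, 9.3 and 8.3 scaled FPKM in LL, 5.2, 5.1 and 6.6 in the dry period, and 12.3, 13.2 and 17.4 in LG, and rose in LG against DP by 1.20 (SE 0.16, adjusted p 0.000572). ATP5G3, at 66.3 ± 11.5 in LL, 44.8 ± 7.5 in the dry period and 92.3 ± 8.2 in LG (scaled FPKM, SD, n = 3), rose by 1.04 (SE 0.19, adjusted p 0.00251). How reads shared by near-identical copies of these genes were assigned is not given in the sources used here.

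The small membrane subunits f and g, encoded by ATP5J2 and ATP5L, take part in pairing ATP synthases into dimers. ATP5L (chromosome 15, 53248410 to 53256892, minus strand) was at 74.4, 86.7 and 63.3 scaled FPKM in LL, 26.8, 25.6 and 24.6 in the dry period, and 68.8, 58.5 and 66.3 in LG. The DP libraries lay apart and close together, while LL and LG overlapped. ATP5L fell in DP against LL by 1.49 on the log2 scale (SE 0.16, adjusted p 5.17e-05) and rose in LG against DP by 1.29 (SE 0.16, adjusted p 0.000325). ATP5J2, at 91.4, 97.4 and 74.8 in LL, 28.8, 34.3 and 36.5 in the dry period, and 72.5, 62.8 and 63.1 in LG, fell in DP against LL by 1.38 (SE 0.16, adjusted p 0.000107). Its log2 fold change in LG against DP was 0.98 (adjusted p 0.00172), just under the fold needed. ATP5I, which encodes subunit e, fell in DP against LL by 1.08 (adjusted p 0.000483), so all 3 membrane genes were called there. In the stalk, ATP5F1 (subunit b) was called lower in DP than in LL and ATP5O (the subunit that joins stalk and head) higher in LG than in DP, and ATP5H and ATP5J were called in neither.

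**Figure D3:**
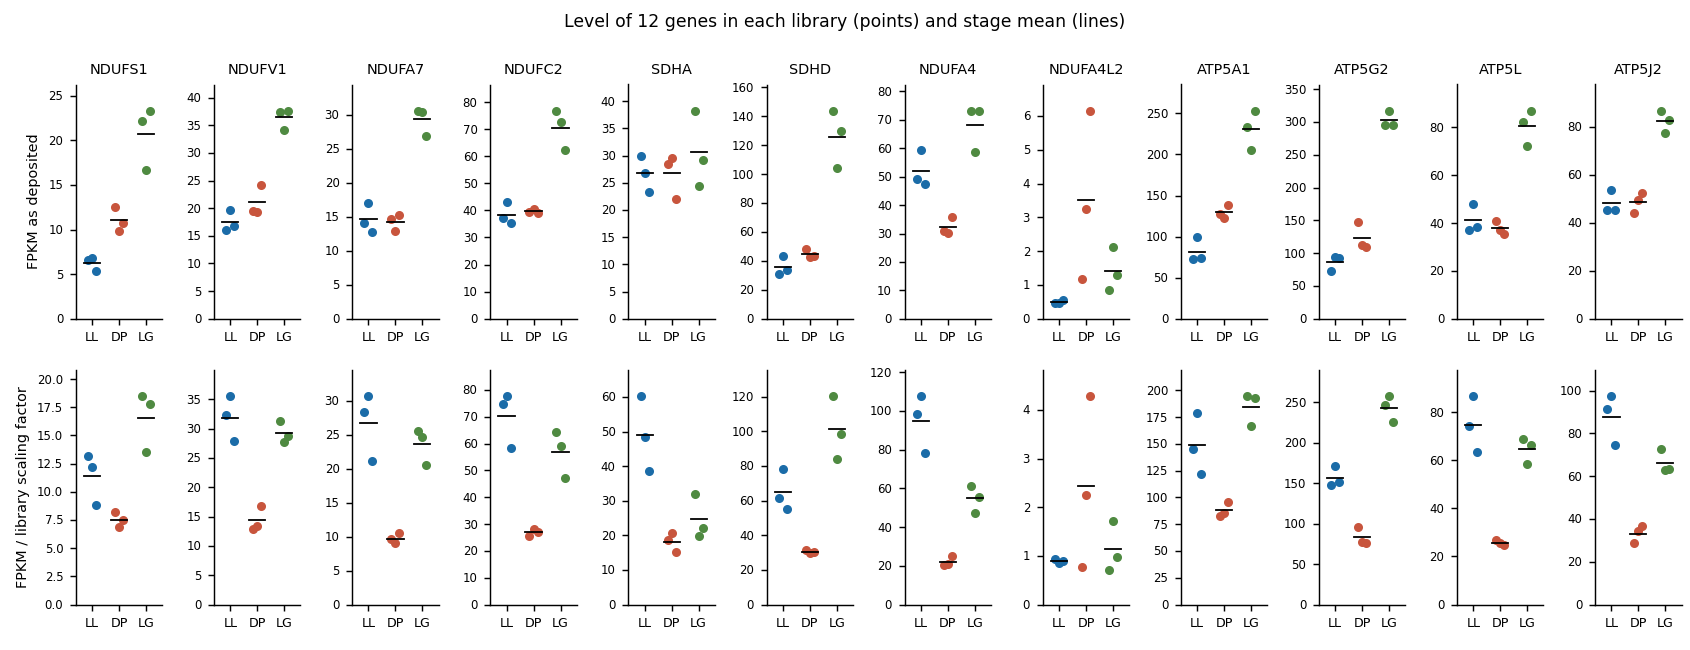
Level of 12 genes in each library (points, 3 per stage; horizontal lines are stage means), as deposited in FPKM (top row) and divided by the scaling factor of the library (bottom row), with every axis starting at 0. In the bottom row the DP mean is the lowest for every gene but NDUFA4L2, whereas in the top row NDUFA4 is the gene whose DP points all lie under its LL points.

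Several measures were taken within a library, so that no scaling enters. With 3 libraries a stage, an exact two-sided permutation test cannot give a p below 0.1, and 39 comparisons were made in all. The smallest adjusted p was 0.186, which every comparison without overlap had, so none passed a threshold of 0.05. These values are given for their size and for whether the stages overlap.

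The log2 ratio of NDUFA4L2 to NDUFA4 was -5.09, -5.36 and -4.97 in LL, -3.88, -2.88 and -2.37 in the dry period, and -5.32, -4.25 and -5.03 in LG. Every DP library was above every library of the other stages, and LL and LG overlapped. NDUFA4 nevertheless stayed the more abundant gene of the pair in all 9 libraries, with ratios under 0. The difference of 2.10 between DP and LL (exact permutation p = 0.1) was 3.01 with a pseudocount of 0.1.

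The log2 ratios of ATP5G2 to ATP5G1 (3.83 ± 0.21 in LL, 3.73 ± 0.33 in the dry period and 4.03 ± 0.34 in LG) and of ATP5G3 to ATP5G1 (2.60 ± 0.16, 2.84 ± 0.12 and 2.64 ± 0.31) overlapped between all stages (SD, n = 3). The proportions of the c subunit genes were therefore not separable between stages here, although their level was. ATPIF1 encodes the inhibitor that binds F1 when the proton gradient collapses, and its log2 ratio to ATP5B was -2.14 ± 0.26 in LL, -2.18 ± 0.33 in the dry period and -2.77 ± 0.43 in LG, with overlap.

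Complex I genes held 38.8% ± 0.9 of the summed FPKM of the 59 genes in LL, 40.4% ± 0.4 in the dry period and 35.1% ± 0.5 in LG, and complex V genes held 51.0% ± 0.9, 51.2% ± 0.4 and 55.3% ± 0.7 (SD, n = 3). LG had the lowest complex I and the highest complex V share without overlap, while the complex V shares of LL and DP overlapped (exact permutation p = 0.8). NDUFA4 and NDUFA4L2 together held 3.74% in LL, 1.92% in the dry period and 2.23% in LG, with LL apart. The complex II share was 6.38% in LL, 6.45% in the dry period and 7.37% in LG. LG was above both there, but the order turned when linked rows, SDHD among them, were left out. A sum follows its most abundant genes, so the mean log2(FPKM + 1) of each complex minus that of all 59 genes was compared as well. On that measure complex I was again lowest and complex V highest in LG without overlap. Complex V was lower in DP than in LL (difference -0.045, exact permutation p = 0.1). Those libraries only just failed to overlap, with LL replicate 1 at 0.7299 and DP replicate 1 at 0.7294. Complex I and complex IV overlapped between DP and LL (exact permutation p = 0.2 and p = 0.8), and complex II overlapped between LG and DP (exact permutation p = 0.6).

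The order of the 59 genes by level changed little. Across these genes, which are not independent replicates, the Spearman correlation of mean FPKM was 0.95 between DP and LL, 0.94 between LG and LL and 0.96 between LG and DP.

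**Figure D4:**
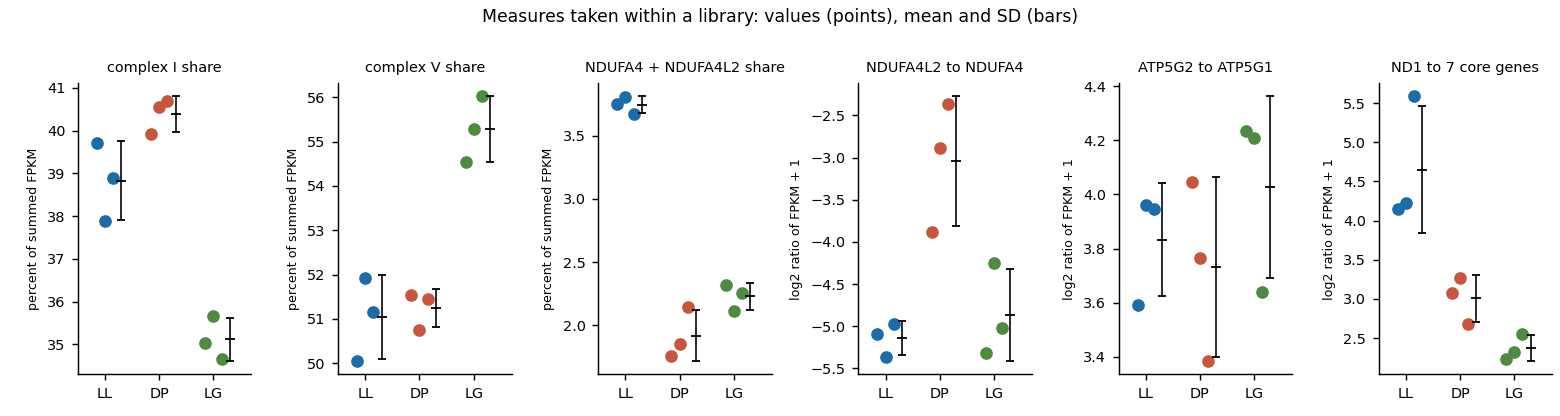
Shares of the summed FPKM of the 59 genes and log2 ratios between genes, measured within each library (points; the bars beside them are mean and SD, n = 3; the y axes do not start at 0). LG has the lowest complex I and the highest complex V share, DP has the highest NDUFA4L2 to NDUFA4 ratio, the ATP5G2 to ATP5G1 ratio overlaps, and LL replicate 3 stands high in the ND1 ratio.

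The values of 8 of the 59 genes, 13.6%, followed those of another gene listed within 8 rows on the same strand to within 1% of their range over the 9 libraries. Of all 15945 genes searched, 9.44% did so. Such a pair carries the information of 1 measurement. NDUFB6 was a constant share of DDX58, at a ratio of 0.961 to 0.962, and exceeded TOPORS by 1.0 to 1.5 FPKM. NDUFC1 exceeded MGARP by 1.0 to 1.5 FPKM. NDUFV2 lay below ANKRD12 in every library, with differences of -3.03 to -2.53 FPKM.

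Further linked pairs were ATP5D with MIDN, NDUFB10 with LOC106503566, NDUFS3 with PTPMT1, and SDHD with C15H11orf57. For NDUFC1, NDUFS3 and NDUFV2 the link was exact once fixed amounts of 1.0 to 1.5 FPKM were taken into account. The amount of a library was the same for all such genes. These amounts were read from the differences between NDUFB6 and TOPORS, so the exact link of that pair was set in advance. ATP5D, NDUFB10 and SDHD met the limit without the amounts. Their differences from the neighbour nevertheless moved between libraries by the same amounts in size. Of the linked genes, ATP5D and SDHD were called, both in both comparisons. ATP5D, the delta subunit of F1, was at -1.07 in DP against LL and 1.22 in LG against DP (adjusted p 0.00326 and 0.00287). Without the 8 linked genes, 20 of 51 were called lower in DP than in LL and 12 of 51 higher in LG than in DP, with medians of -0.91 and 0.81.

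**Figure D5:**
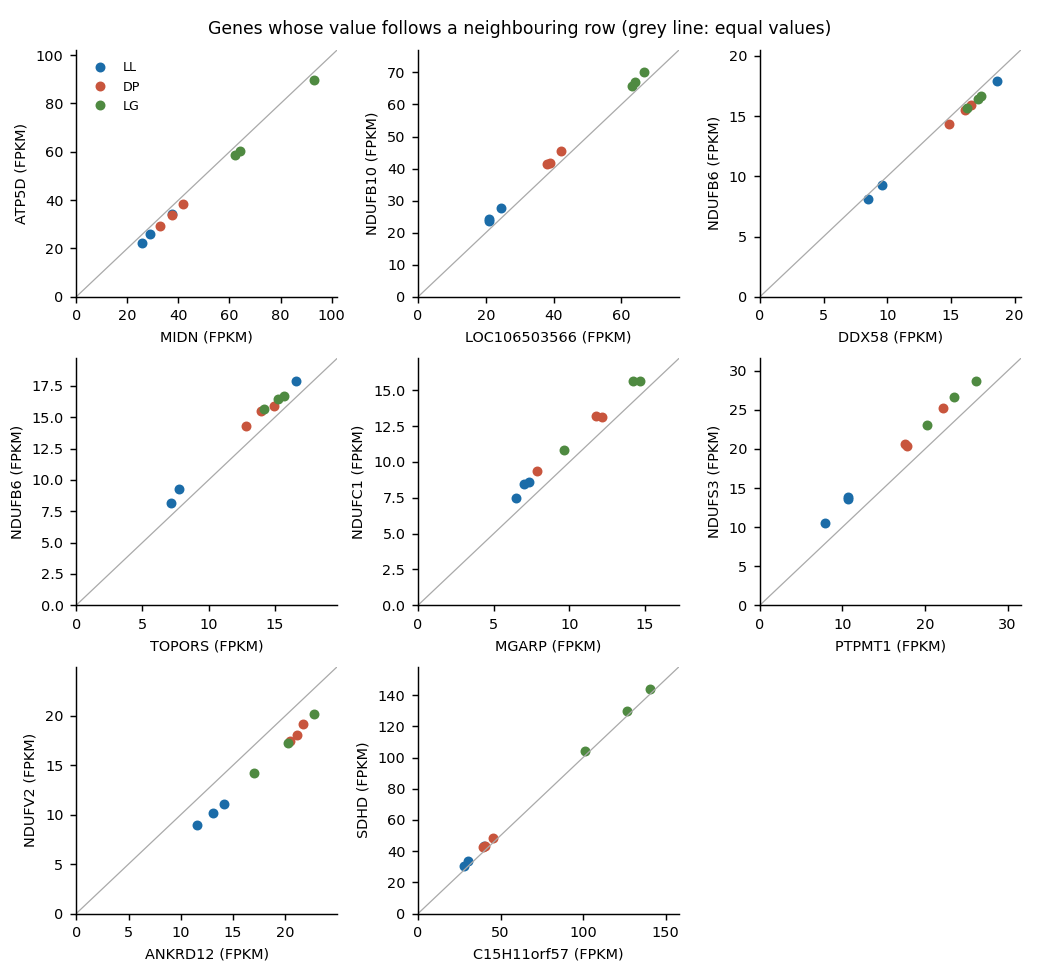
FPKM as deposited of linked genes (y axis) against the neighbouring gene it follows (x axis), 9 libraries a panel, coloured by stage. The points of every pair plotted lie on a line next to the grey line of equal values, for instance NDUFB6 at a ratio of 0.961 to 0.962 to DDX58.

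ND1, a core subunit of complex I encoded by mitochondrial DNA, did not follow the nuclear core genes. It was listed at 225, 277 and 656 FPKM in LL, 176, 195 and 146 in the dry period, and 141, 137 and 187 in LG. LL replicate 3 was the highest, and DP and LG overlapped. With scaling, ND1 fell in DP against LL by 2.42 on the log2 scale (SE 0.31, adjusted p 0.000162) and in LG against LL by 2.34 (adjusted p 0.000274), and was at 0.08 in LG against DP (adjusted p 0.867). Its log2 ratio to the mean of the 7 nuclear core genes within a library, a measure chosen after the values were seen, was 4.65 ± 0.81 in LL, 3.01 ± 0.30 in the dry period and 2.37 ± 0.16 in LG (SD, n = 3), without overlap (exact permutation p = 0.1 for each pair of stages). ND6 was listed at 0 in every library, and the other mitochondrially encoded subunits were not analysed here.

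Subunits whose symbols the rule does not cover behaved as the 59 genes did in direction in DP against LL. USMG5, a small ATP synthase subunit, fell by 1.04 (adjusted p 0.000861). NDUFAB1, the acyl carrier protein found in complex I, was at -0.74 and ATPIF1 at -0.77, both without a call.

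Assembly factors, which build the complexes and are not part of them, had no common direction in DP against LL. Of 56 listed, 30 were tested. On scaled values 2 were called higher and 4 lower in DP against LL, 20% against 22.6% of all genes tested. Of the 30, 14 were above and 16 below 0 in that comparison, with a median log2 fold change of -0.07. NDUFAF5 and SDHAF1, which help to assemble complexes I and II, rose by 1.45 and 1.41 (adjusted p 4.5e-05 and 0.000172), while NDUFAF8, CMC2, TTC19 and HIGD2A fell. In LL, NDUFAF5 was at 0.11 to 0.26 FPKM and SDHAF1 at 0.05 to 0.27, under the filter value of 0.5. NDUFAF5 and SDHAF1 passed the filter through DP and LG, and their rises start near the floor. TTC19 and HIGD2A are themselves linked rows. In LG against DP, 25 of the 30 had a log2 fold change above 0 and 5 below, with a median of 0.23, and 3 were called higher and 0 lower: ACAD9 and NDUFAF2, which act on complex I, rose by 1.40 and 1.14, and ATPAF2, which acts on the F1 part, rose by 1.02. The share called in LG against DP was 10%, against 13.3% of all genes tested. In LG against LL, 6 were called higher and 2 lower, 26.7% against 17.3% of all genes tested. NDUFAF2, at 0.13 to 0.22 FPKM in LL, and LYRM7, at 0.14, also passed the filter through DP and LG. For such genes a rise from LL to LG starts near the floor, so that share is not read as a trait of the list.

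Regulators of mitochondrial biogenesis had mixed directions in DP against LL. Of 14 listed, 11 were tested, 6 above and 5 below 0 there. The share called was 36.4%, against 22.6% of all genes tested. In DP against LL, NRF1, POLRMT (the mitochondrial RNA polymerase) and PPRC1 rose by 1.35, 1.82 and 1.30, and ESRRA, an orphan nuclear receptor, fell by 1.63 (adjusted p 8.81e-05). In LG against DP, ESRRA rose by 1.28 (adjusted p 0.000836) and no other regulator was called, with 9 above and 2 below 0. That was 9.09%, against 13.3% of all genes tested. In LG against LL, PPRC1, NRF1 and POLRMT rose by 1.61, 1.07 and 1.81, and none was called lower. The share called there was 27.3%, against 17.3% of all genes tested. In LL, POLRMT was at 0.12 to 0.31 FPKM, PPRC1 at 0.21 to 0.25 and NRF1 at 0.17 to 0.53. These genes passed the filter on low values through DP and LG, and their rises start near the floor. ESRRA is a linked row as well. Mitochondrial ribosomal proteins, 76 tested, had medians of -0.39 in DP against LL (5 called lower, 1 higher) and 0.42 in LG against DP (5 higher, 1 lower). In each comparison 7.89% of them were called, against 22.6% and 13.3% of all genes tested.

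Markers of the cell types that the tissue could hold also differed between the stages. The summed scaled FPKM of 6 of 6 luminal epithelial markers was 819 to 1106 in LL, 269 to 522 in the dry period and 733 to 891 in LG, so they were present in every library. The sum rested largely on ELF5: without it, the other 5 markers summed to 343 to 431 in LL, 243 to 478 in the dry period and 324 to 393 in LG, which overlapped. Of these 5, KRT8 and KRT18, luminal keratins, had log2 fold changes of 0.28 and 0.60 in DP against LL. The others, KRT19, EPCAM and CDH1, were lower there, at -0.40, -0.74 and -0.48 (adjusted p 0.299, 0.0257 and 0.0311). None of the 5 was called. ELF5, a transcription factor of luminal secretory cells, was at 26 to 44 scaled FPKM in DP against 440 to 676 in LL and 408 to 498 in LG. It fell in DP against LL by 4.19 on the log2 scale and rose in LG against DP by 3.82. The sum of 5 of 5 fibroblast markers was 151 to 235 in LL, 359 to 1593 in the dry period and 253 to 484 in LG, and that of 4 of 4 T cell markers 5.24 to 6.07, 15.9 to 50.6 and 12.4 to 18.9.

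The macrophage markers (4 of 5 in the table) summed to 31.5 to 43.6 in LL, 68.8 to 75.1 in the dry period and 21.7 to 25.4 in LG, and the 5 pericyte and vascular smooth muscle markers to 23.2 to 27.8, 38.1 to 127 and 21.2 to 26.2. Myoepithelial markers (180 to 234, 136 to 453 and 225 to 304) overlapped between stages. Endothelial markers were at 90.1 to 120 in LL, 106 to 152 in the dry period and 55.0 to 77.8 in LG. The adipocyte list was at 581 to 862 in LL, 5.07 to 24.6 in the dry period and 17.0 to 24.6 in LG, where LPL, which lactating epithelium also makes, held most of the LL sum and LEP was at 0 in every LL library. ADIPOQ, a defining adipocyte gene, was listed at 19.3 FPKM in DP replicate 1, at 0.79 and 1.72 in the other DP libraries and at 0.41 or less elsewhere. The brown or beige adipocyte list was at 276 to 429, 4.66 to 9.80 and 24.5 to 34.6, with CIDEA as its leading gene in LL and UCP1 at 0.27 FPKM or less in every library. Skeletal muscle markers (4 of 6 in the table) summed to at most 1.20, and 2 of them, CKM and MB, were at 0 in LL. The part of these shifts in the levels of the 59 genes was not tested, and in whole tissue fewer cells of a type and less RNA per cell cannot be told apart.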

How the data were processed

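The authors extracted total RNA from mammary gland, prepared libraries with a kit that does not mark strand in its standard form, sequenced them, trimmed reads and aligned them to a goat genome (HISAT2). The submitters' processing notes name FastQC, Trimmomatic, HISAT2, SAMtools and HTSeq, while the methods name StringTie for quantification, and how transcript values became gene values is not given in the sources used here. The deposited table holds 1 value per gene and library to 2 decimals and names no unit; it was read as FPKM computed by the authors, with no correction across studies. Read counts could not be recovered from it, so the depth behind a value is unknown, no count test was run and no counting error is given. Symbols and coordinates are those of the table, which names no build.

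Values were divided by median-ratio factors from 15905 genes. The 14701 genes that reached 0.5 FPKM in 3 or more libraries entered a limma model of log2(value + 1) (version 3.58.1, R 4.3.3; eBayes with trend), all 9 libraries in 1 fit, no covariates, Benjamini-Hochberg adjustment, which is the source of every adjusted p of a gene. A call needs both an adjusted p under 0.05 and a change of 1 or more on the log2 scale, as in the study. In a simulation of DP against LL over 14701 genes, 200 were changed by 1.5 (log2), of which 172 were called, with 6 false calls. Linked rows were sought among same-strand genes within 8 rows, in 45822 pairs. Ratios and shares were tested with exact two-sided permutation tests.

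Genes named were core subunits, genes of paired isoforms, the 2 called genes with the largest fold change in each complex and comparison, and the largest change against the sign of the median; NDUFS3, NDUFV2, NDUFB6, NDUFB10, NDUFC1 and ATP5D are named as linked rows, and NDUFB1, NDUFB8, NDUFA2, NDUFV3, ATP5E, ATP5F1, ATP5H, ATP5I, ATP5J and ATP5O after their values were seen. Counts over the 59 genes cover a result that is not reported here. The genes and lists were chosen with earlier results of these data known. Alternatives covered scaling, pseudocount, filter, the libraries in the fit, a replicate block, the trend, the call rule, linked rows and each library left out in turn.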

Additional observations from a re-analysis of the deposited data

How the results depend on the processing

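The calls depended most on the scaling between libraries. The median log2 fold change of the 59 genes in DP against LL, LG against LL and LG against DP was 0.48, 1.00 and 0.59 with the values as deposited, -0.49, 0.10 and 0.64 with quantile normalization, and -0.20, 0.12 and 0.36 with the sum outside the 10 highest genes. The numbers called were 2, 29 and 6 as deposited (of all genes tested, 56.8%, 47.9% and 15.6%), 4, 1 and 8 with quantile normalization (18.1%, 13.2% and 12.6%), and 2 and 2 in the comparisons with DP by the sum (32.6% and 17.3%). With the adjusted p alone they were 55, 15 and 50. Of the genes named by rule, the deposited values turned the sign in DP against LL of NDUFV1 (0.25), SDHC (1.01), SDHD (0.33), NDUFC2 (0.046) and ATP5J2 (0.013), and in LG against LL of NDUFV1 (1.02), NDUFS8 (1.10) and ATP5C1 (1.12); a gene that was not called counts here only if called under the alternative. Leaving out each library in turn gave 18 to 31, 0 to 1 and 9 to 19 calls, and medians of -1.05 to -0.81, -0.19 to -0.03 and 0.74 to 0.85. The lone call in LG against LL was SDHA, and the 31 calls came without LL replicate 3. Without linked rows, the complex II share in LG differed by -0.50 percentage points from LL and by -0.78 from DP, since SDHD leaves the sum; no other ratio or share without overlap between stages changed sign under its alternatives.

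The pseudocount, the filters, the fit on 2 stages, the absent trend and the replicate block left each of the 3 counts within 1.5 times its value. With the replicate number as a block, 22, 0 and 14 genes were called, as without it. Each library came from a different goat, and the labels do not say what the replicate numbers stand for. Deviations of same-numbered libraries correlated at -0.11 to 0.20 and those of others at -0.22 to 0.07. Of the 9 libraries, 6 correlated best with their own number. Whether same-numbered libraries shared a handling step was not tested. FPKM carry no depth, so how far depth limits the low genes, NDUFA4L2 above all, is unknown.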
